A study of Mus musculus with 2 samples.

Results

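The regions described here were stretches of open chromatin that lay away from gene starts and carried a binding site for AP-1, in primary T cells of the mouse strain C57BL/6NJ. Peak lists from ATAC-seq were given for 2 libraries in 1 group, which the labels number as biological replicates 1 and 2 while naming the same donor record for both, so it is not known whether they came from different animals and their spread may be technical. ATAC-seq marks open chromatin by where a transposase can cut and tag the DNA. The sex was not collected, the age is unknown, and the linked protocol concerns the differentiation of CD4+ T cells. Peak names in both files contain Th0, 72hrs and ASTARR.insert, terms without an explanation in the labels, so no T-cell subset was assigned. The lists held 78104 peaks in replicate 1 and 74733 in replicate 2, and the sequencing depth behind them is unknown.

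Overlapping peaks of both libraries on chromosomes 1 to 19 were merged to 82687 regions, of which 65318 had a peak in both libraries. The strongest summit, the base with the highest signal, lay more than 1000 bp from every protein-coding transcription start in 51731 of these, which are called shared distal regions. An AP-1 site, TGACTCA or its reverse complement TGAGTCA, lay wholly within 50 bp of that summit in 9783 of the 51731 regions. That was 18.9% (exact 95% Clopper-Pearson interval 18.6 to 19.3%, which like all intervals here covers counting error only), and 41948 shared distal regions had no such site. Windows of the same length centred 500 bp to the left and right of the same summits held the site in 1.68% and 1.69% of regions. Among the 13587 shared regions at promoters, 393 held it, or 2.89% (2.62 to 3.19%). The site and the distance were part of the choice of regions, so these shares are a description.

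AP-1 is a dimer of leucine zipper proteins of the Fos, Jun, Atf and Batf families, and it binds this short palindrome, also known as the TPA response element. In T cells its subunits are induced by signals from the antigen receptor and from CD28, and AP-1 often binds beside a partner, NFAT on cytokine genes and IRF4 or IRF8 on composite elements that hold BATF and a JUN protein. The site is a palindrome around its central base and so has no direction of its own. The T-cell nature of the open regions was checked at promoters: all 7 of the T-cell markers examined (Cd3e, Cd3d, Cd3g, Cd247, Lck, Cd2 and Bcl11b) had a peak over a start in both libraries. Of 4 B-cell markers only Pax5 had one, of 4 myeloid markers only Mpo, of 3 hepatocyte markers only Apoa1, and of 2 erythroid markers only Klf1.

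The sequences below reach 50 bp to each side of the summit, on the plus strand of mm10 (GRCm38), 5′ to 3′, with every AP-1 site in capitals. The first is the AP-1 region with the highest mean signal of all, in an intron of Klra4, which encodes a Ly49 receptor of a family of closely similar genes. The next are the strongest AP-1 regions of 6 loci of known T-cell genes: Havcr2 for the inhibitory receptor TIM-3, Il10 and Ifng for cytokines, Tcf7 and Prdm1 for transcription factors of memory and effector cells, and Runx1, which carries a pair of sites. The region in Msra is shown for its 3 sites.

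Klra4 intron, chr6:130062984-130063084: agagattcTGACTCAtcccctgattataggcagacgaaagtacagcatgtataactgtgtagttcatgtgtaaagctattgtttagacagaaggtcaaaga
Havcr2 intron, chr11:46474389-46474489: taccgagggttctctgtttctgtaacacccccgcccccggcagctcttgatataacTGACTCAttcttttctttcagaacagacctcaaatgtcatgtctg
Il10, intergenic, chr1:131038281-131038381: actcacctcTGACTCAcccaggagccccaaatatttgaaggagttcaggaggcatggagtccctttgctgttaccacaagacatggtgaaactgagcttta
Tcf7, intergenic, chr11:52299767-52299867: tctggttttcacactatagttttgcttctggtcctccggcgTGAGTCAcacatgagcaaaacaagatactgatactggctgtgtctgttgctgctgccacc
Prdm1, intergenic, chr10:44539487-44539587: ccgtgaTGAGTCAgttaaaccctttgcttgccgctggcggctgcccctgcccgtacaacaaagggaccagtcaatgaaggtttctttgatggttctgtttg
Ifng, intergenic, chr10:118458899-118458999: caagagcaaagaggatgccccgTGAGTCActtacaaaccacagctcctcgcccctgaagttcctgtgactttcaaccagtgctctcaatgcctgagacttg
Runx1 intron, chr16:92620892-92620992: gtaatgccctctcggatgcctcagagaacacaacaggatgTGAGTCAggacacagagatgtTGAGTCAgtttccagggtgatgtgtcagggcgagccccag
Msra intron, chr14:64368395-64368495: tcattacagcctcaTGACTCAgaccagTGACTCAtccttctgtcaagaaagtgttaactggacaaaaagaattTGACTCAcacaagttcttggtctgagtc

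In the next 3 sequences the capitals mark the AP-1 site with the letters that make a composite, each from a region of high signal of its kind that was not yet printed. Near Chst2 the site is followed by TTTC, which is GAAA directly before the site on the other strand, the core bound by interferon regulatory factors (IRF). In an intron of Tango6, 75.2 kb from the start of Has3, TTTC stands 4 bp before the site. That site also has GAAA directly before it on the other strand, past the end of the printed window. Near H2-Q1, a class I histocompatibility gene among closely similar genes, TGC stands directly before the site, as in the longer element bound by Maf proteins.

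Chst2, intergenic, chr9:95266046-95266146: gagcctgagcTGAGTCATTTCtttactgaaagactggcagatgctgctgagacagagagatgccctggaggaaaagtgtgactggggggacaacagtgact
Tango6 intron, chr8:106794949-106795049: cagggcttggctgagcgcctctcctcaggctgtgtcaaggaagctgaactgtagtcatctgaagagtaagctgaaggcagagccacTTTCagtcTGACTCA
H2-Q1, intergenic, chr17:35301842-35301942: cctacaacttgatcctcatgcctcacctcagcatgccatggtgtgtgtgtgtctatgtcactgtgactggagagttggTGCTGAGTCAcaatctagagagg

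Shared distal regions with the AP-1 site had a higher accessibility signal than those without it in both libraries. The deposited signal of a peak, read as its fold over the local background, had a median of 7.61 in the 9783 regions with the site and 6.53 in the 41948 without it in replicate 1. In replicate 2 the medians were 7.27 with the site and 6.28 without it. The ratio was 1.17 in replicate 1 and 1.16 in replicate 2, with an SD between the libraries of 0.00625, so the distance of both ratios from 1 was larger than the spread between the libraries. The 2 sets of regions overlapped widely: the quartiles in replicate 1 were 5.13 and 11.02 with the site, against 4.47 and 9.60 without it. No test was made, because regions of 1 library are not replicates.

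The order was the same by the authors' −log10 q, whose median was 39.2 with the site and 29.5 without it in replicate 1, and 28.6 and 21.5 in replicate 2. The peaks with the site were at the same time slightly narrower, with a median width of 606 bp against 622 bp in replicate 1 and 595 bp against 609 bp in replicate 2. Their summits were placed more alike by the 2 libraries, at a median of 14 bp apart with the site and 17 bp without it, and the upper quartile of that distance was 40 bp and 58 bp.

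**Figure D1:**
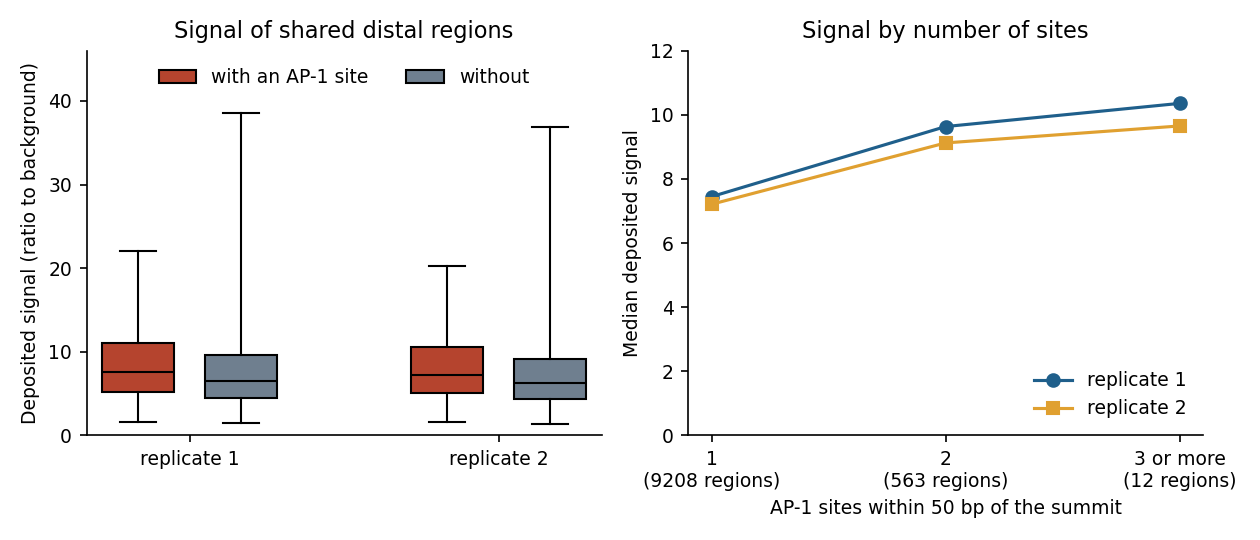
Left, deposited signal of shared distal regions with an AP-1 site and without one in each library, where the line is the median, the box the quartiles and the whiskers the lowest and highest region. Medians were higher with the site, 7.61 against 6.53 and 7.27 against 6.28, while the single highest regions had none. Right, median signal by the number of AP-1 sites within 50 bp of the summit in each library, from 7.45 and 7.21 with 1 site to 10.4 and 9.65 with 3 or more.

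The share of regions with the site was higher the higher the signal, apart from a dip at the sixth decile, yet the 10 strongest regions lacked it. In replicate 1 it was 11.8% of the lowest decile of shared distal regions by signal (10.9 to 12.7%) and 28.2% of the highest decile (27.0 to 29.4%). In replicate 2 the values were 11.3% of the lowest decile and 28.0% of the highest. From the third to the sixth decile it was between 16.2 and 19.3% in both libraries. By the mean signal of both libraries, none of the 10 strongest shared distal regions had the site, 29 of the 100 strongest had it, and 328 of the 1000 strongest. The highest signal in replicate 1 was 22.0 among regions with the site and 38.5 among those without it.

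**Figure D2:**
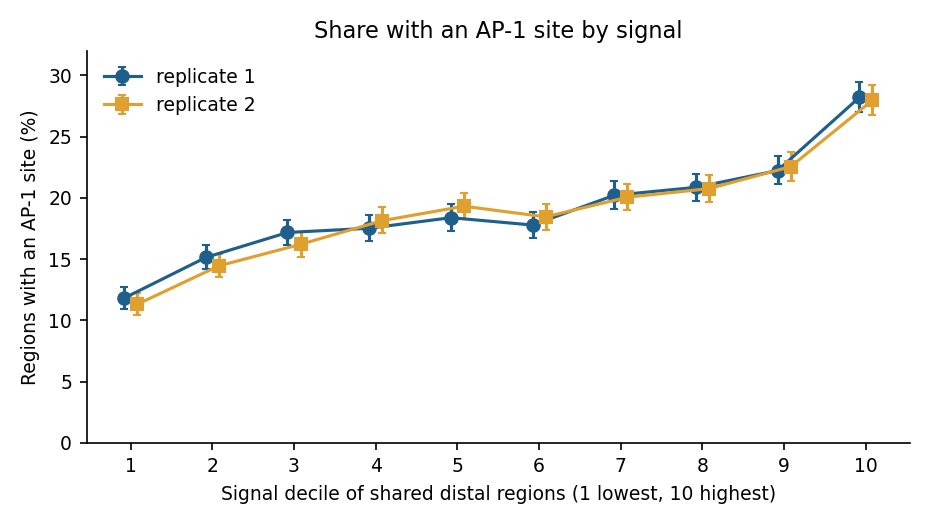
Share of shared distal regions that held an AP-1 site in each decile of the deposited signal, lowest to highest, for both libraries, with exact 95% intervals. Both lines run from about the same low point, 11.8% and 11.3%, to 28.2% and 28.0% in the highest decile.

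Most AP-1 regions held 1 site, and those with more had the higher signal. A single site was found in 9208 of the 9783 regions (94.1%), with median signals of 7.45 in replicate 1 and 7.21 in replicate 2. A pair was found in 563 regions, with medians of 9.63 and 9.12. The 12 regions with 3 or more sites had medians of 10.4 and 9.65 and ranged from 5.30 to 18.05 in replicate 1 and from 3.82 to 17.2 in replicate 2, so they overlapped with the single-site regions, which ranged from 1.61 to 22.0 in replicate 1. The region in Msra printed above, with 3 sites, had a signal of 18.05 in replicate 1 and 17.2 in replicate 2. Of the 587 neighbouring pairs of sites, 64 were 10 to 12 bp apart from centre to centre, or 21.3 pairs per bp of spacing. There were 5.67 per bp at 7 to 9 bp, 13.3 at 13 to 19 bp, 10 at 20 to 29 bp and 2.43 at 60 to 94 bp. Over all spacings from 7 to 94 bp the average was 6.67 per bp. Both sites had to fit in the window, which leaves fewer positions for wide spacings, and how much of the differences this accounts for was not tested. The 2 sites of the Runx1 region, centred 7 bp before and 14 bp after the summit, have a wider spacing than 10 to 12 bp.

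Regions with the site were found again in the other library more often than those without it. Of the 12302 merged distal regions with the site at their summit, 79.5% (78.8 to 80.2%) had a peak in both libraries, against 74.8% (74.5 to 75.2%) of the 56065 without it. A further 1477 regions with the site had a peak in replicate 1 alone and 1042 in replicate 2 alone. The signal differed between these sets, so the shares were also taken within deciles of signal. In the lowest decile of replicate 1, 51.9% of regions with the site and 44.996% of those without it were also in replicate 2, and in the lowest decile of replicate 2 the shares were 62.0% and 57.1%. In the fifth decile the order turned, with 86.5% of regions with the site and 89.7% of those without it in replicate 1, and 92.3% and 93.9% in replicate 2. In the highest decile nearly all regions were in both libraries, 1600 of 1600 with the site and 4250 of 4251 without it in replicate 2.

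The 10370 AP-1 sites in these regions were spread unevenly over the window around the summit. The median distance from the centre of the site to the summit was 23 bp, where the choice of regions allowed 0 to 47 bp. In classes of distance the density was highest from 20 to 29 bp, with 144 sites per position, against 110 from 0 to 9 bp, 103 from 10 to 19 bp, 102 from 30 to 39 bp and 80.4 from 40 to 47 bp. The classes hide finer steps: 192 sites were centred on the summit base itself, and 33 to 89 on each of the positions 2 to 4 bp from it on either side, while the highest count at 1 position was 212, at 6 bp to the right. The sides were even, with 5085 sites to the left and 5093 to the right, and 49.6% of sites read with C at the centre on the plus strand. Among single-site regions the median signal was also highest with the site at 20 to 29 bp, at 7.78 and 7.45 in replicates 1 and 2, and lowest at 0 to 9 bp, at 7.12 and 6.84. Across the limit of the choice, the 671 regions whose nearest site was centred 43 to 47 bp from the summit had median signals of 7.22 and 7.16, and the 604 regions just outside, at 48 to 52 bp, had 7.66 and 7.44.

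**Figure D3:**
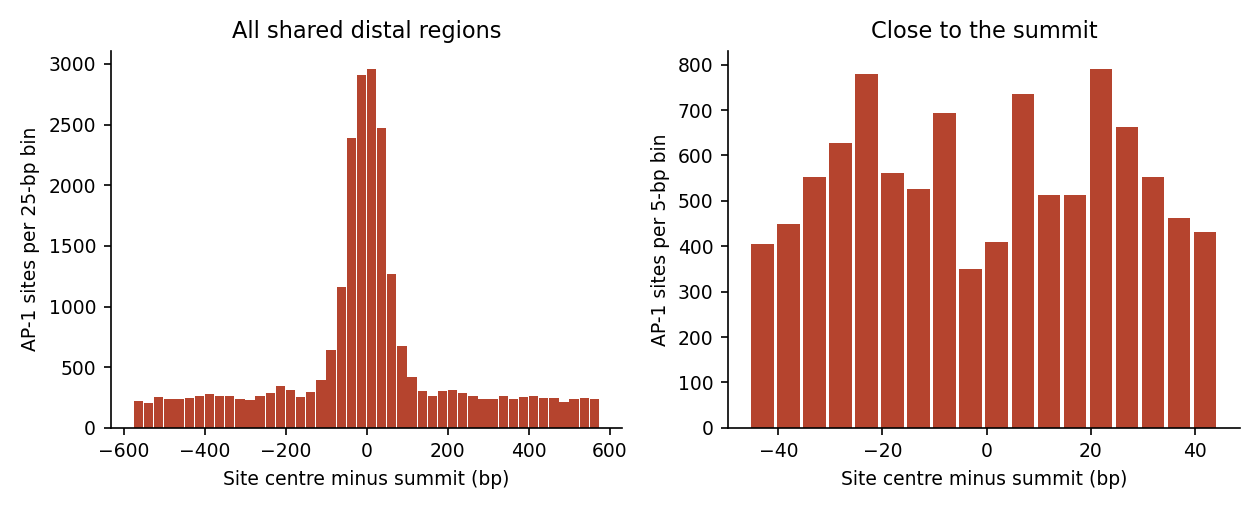
Number of AP-1 sites by the distance of their centre from the summit over all 51731 shared distal regions, in 25-bp bins (left) and in 5-bp bins close to the summit (right). Sites pile up within about 100 bp of the summit, with high 5-bp bins at 20 to 25 bp and around 6 bp on either side. Low bins lie right beside the summit and at the outer edges of the right panel. Beside the summit, the positions 2 to 4 bp away held 33 to 89 sites each and the summit base 192.

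Only a small part of the AP-1 sites in the genome lay at these summits, and the base at the centre and the bases outside the site went with that part. Chromosomes 1 to 19 of the reference held 387502 such sites more than 1000 bp from a protein-coding start, of which 2.68% (2.63 to 2.73%) were the sites of these regions. For the same outer bases with A or T at the centre, TGAATCA or TGATTCA, 2036 of 359949 distal sites, 0.566%, lay within 50 bp of the summit of a shared distal region. Sites in repeat-masked sequence lay at summits less often, 1.31% of them against 2.99% of other sites.

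The base directly before the site, read on each strand in turn, was A in 33.8% and G in 31.8% of readings at the summits, against 25.04% and 22.3% over all distal sites in the genome. It was T in 9.34% at the summits, against 21.2% in the genome. Of genomic sites with A before one strand and G before the other, 5.72% lay at a summit, the highest share of the 10 possible pairs, followed by G on both at 4.80% and A on both at 4.63%. With T on both strands 94 of 19253 sites, or 0.488% (0.395 to 0.597%), lay at a summit. The level at the summits did not follow this order: single-site regions with T on both strands had median signals of 7.77 and 7.31, those with A and G had 7.61 and 7.34, and the lowest of the 10 pairs was C on both, at 6.83 and 6.45.

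The letters of some partner factors were more frequent at certain distances from the site. GAAA, the IRF core, stood directly before the site on one of its strands at 321 of the 10370 sites, or 3.10% (2.77 to 3.45%), against 1.67% of distal sites in the genome, a ratio of 1.86. With 8 to 20 bases between, the same letters were found at 114 to 156 sites per spacing. The reverse letters, TTTC, 4 bp before the site stood at 2.05% of sites, against 1.29% in the genome, a ratio of 1.59. These are the spacings at which IRF4 with BATF and a JUN protein is known to bind composite elements. The signal of regions with GAAA beside the site was close to that of the rest, with medians of 7.67 against 7.61 in replicate 1 and 7.39 against 7.27 in replicate 2. With TTTC 4 bp before it the medians were 8.27 against 7.59 and 7.66 against 7.25.

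The core of ETS factors, GGAAG, showed a larger difference, which was noticed in the counts by spacing and not looked for at first. It stood directly before the site at 121 sites, or 1.17% (0.969 to 1.39%), against 0.354% of distal sites in the genome, a ratio of 3.29. With 3 bp between, it stood at 108 sites, or 1.04%, against 0.351% in the genome, a ratio of 2.96. At spacings of 8 to 20 bp the count was 35 to 57. ETS factors such as ETS1 and GABPA are abundant in T cells. Regions with the core directly beside the site had median signals of 9.93 in replicate 1 and 8.74 in replicate 2, against 7.58 and 7.24 in the other AP-1 regions, while those with 3 bp between had 7.45 and 7.39, against 7.61 and 7.27. The last letter of each core is itself one of the bases frequent before the site, A for GAAA and G for GGAAG, and how much of the ratios this accounts for was not tested.

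Other arrangements were less frequent at the summits than in the genome. TGC directly before the site, the longer element of Maf proteins and of BACH2 with a small Maf partner, stood at 3.59% of sites, against 5.39% in the genome, a ratio of 0.666. Its 368 regions also had lower signals, with medians of 6.40 against 7.62 in replicate 1 and 6.25 against 7.34 in replicate 2. The last letter of TGC, C, was by itself less frequent before the site at the summits (25.1%) than in the genome (31.5%). How much of the ratio for TGC this accounts for was not tested. The RUNX core AACCACA 3 bp before the site, also chosen after the counts by spacing were seen, stood out among the spacings at 24 sites, but was less frequent there, at 0.231%, than over the genome, at 0.577%.

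**Figure D4:**
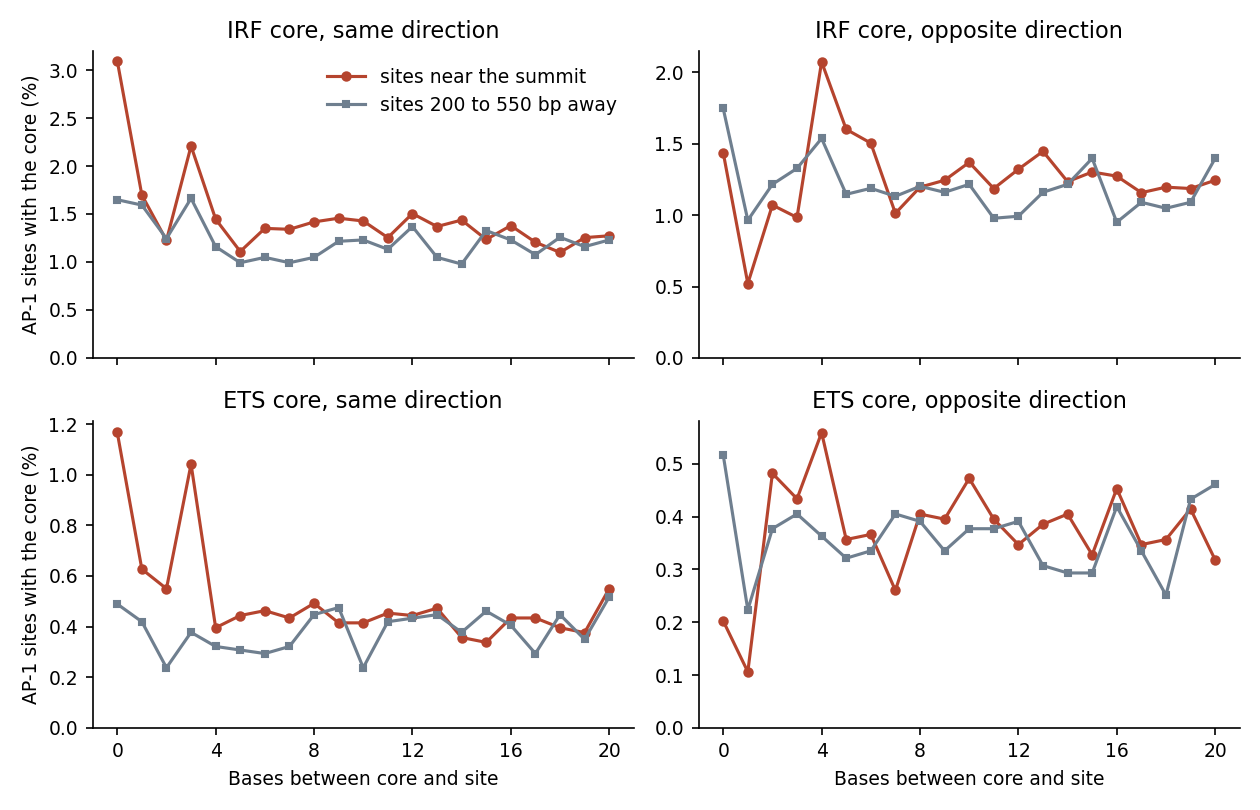
Share of AP-1 sites that had an IRF core (top) or an ETS core (bottom), in the same direction (left) or the opposite direction (right), by the number of bases between core and site. Sites at the summits of AP-1 regions are compared with sites 200 to 550 bp from the summit of shared distal regions. At the summits the IRF core in the same direction peaks with no base between (3.10%, against 1.65% farther away) and again at 3 bases (2.21%, against 1.66%). In the opposite direction it peaks at 4 bases (2.07%, against 1.54% farther away, counted once per strand, so that 2 sites with the letters on both strands count on each). The ETS core in the same direction peaks at 0 (1.17%, against 0.489% farther away) and 3 bases (1.04%, against 0.377%).

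Consensus sequences of most other factors were less frequent near the summits of AP-1 regions than near those of other shared distal regions, and a few were level or more frequent. Exact matches on either strand were counted within 50 bp of the summit. The CTCF core, of the factor that marks boundaries and loop anchors, was found in 0.470% of regions with the AP-1 site and 6.76% of those without it. The GC box of KLF and SP factors, GGGCGG, was found in 2.15% and 5.07%, the NF-kB core in 2.09% and 3.83%, and a repeated IRF element in 1.66% and 2.93%. The ETS core CAGGAAG or CCGGAAG was found in 7.55% with the site and 10.2% without it, the RUNX core TGTGGTT in 4.74% and 6.63%, and the NFAT core TGGAAA in 9.88% and 11.8%. The GATA core AGATAA was close to level, at 4.27% with the site and 4.07% without it, and so was the E-box CAGCTG, at 6.91% and 6.90%. The T-box core was the exception, at 1.01% (0.823 to 1.23%) with the site and 0.498% (0.433 to 0.570%) without it. Whether matches of the T-box core shared letters with the AP-1 site, which the choice of regions put in every window, was not tested. T-box factors such as T-bet and EOMES act in effector T cells.

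Within the AP-1 regions, the letters of several other factors went with a higher signal. The 739 AP-1 regions with an ETS core had medians of 8.32 and 8.03 in replicates 1 and 2, against 7.54 and 7.21 in the other AP-1 regions. The 464 with a RUNX core had 8.34 and 8.01, against 7.56 and 7.22. The 304 that also held the form with A or T at the centre had 9.27 and 8.92, against 7.55 and 7.21. The E-box CAGGTG went the other way, at 7.10 and 6.62, against 7.61 and 7.34. When all regions with a CTCF match were left out, a comparison added after the values were seen, the ratio of median signal with the AP-1 site to without it was 1.18 in both libraries.

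AP-1 regions lay farther from transcription starts and less often in exons than the other shared distal regions. Their median distance to the nearest protein-coding start was 24.996 kb, against 21.1 kb, and 29.4% of them lay more than 50 kb away, against 25.3%. Beyond 500 kb the shares were 0.572% and 0.639%. The share of shared distal regions that held the site was 13.9% at 1 to 2 kb from a start (12.4 to 15.5%), 17.7% at 10 to 20 kb and 22.4% at 100 to 200 kb (21.1 to 23.7%). The farthest lay 1281.6 kb from the start of Sel1l, with signals of 5.13 and 4.46. At the limit of the choice, 50 regions with the site had their summit at most 200 bp beyond the limit of 1000 bp and median signals of 6.69 and 6.47, and 39 that fell short of it by less than 200 bp had 6.203 and 6.12.

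Introns held 51.9% of AP-1 regions (50.9 to 52.8%) and 48.3% of the other shared distal regions. Intergenic sequence, here all sequence outside protein-coding genes, held 44.3% and 45.5%, and exons 3.80% (3.43 to 4.20%) and 6.27%. The GC content within 100 bp of the summit had a median of 47.3% with the site and 48.8% without it. The share with the site was 22.6% where GC was 40 to 45%, and 5.88% where it was above 60%.

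The higher signal was present in each of these classes. Its ratio was 1.18 and 1.16 in introns, 1.15 and 1.16 in intergenic sequence and 1.13 and 1.10 in exons, for replicates 1 and 2. By the mean signal of both libraries it was 1.13 to 1.21 over 8 classes of distance, and 1.05 to 1.19 over 6 classes of GC content and again over 6 classes of peak width. It was lowest, at 1.05, above 60% GC and, also at 1.05, in peaks wider than 1500 bp.

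The AP-1 regions were spread over all 19 chromosomes examined and over many genes. The share of shared distal regions with the site ran from 16.9% on chromosome 17 to 21.2% on chromosome 13. Neighbouring AP-1 regions were a median of 76.1 kb apart, and 9.66% of such distances were under 10 kb. Counted by the nearest start, 12661 genes had at least 1 shared distal region. At least 1 AP-1 region was nearest to 5390 genes, exactly 1 to 3230 of them, and 10 or more to 25 genes. The highest count was 23 for Myc, the driver of growth in activated lymphocytes, of 89 shared distal regions nearest to it (25.8%). The zinc finger factor Klf6 had 18 of 56. Lpp, St3gal1 and Trib2 had 14 each, of 49, 43 and 45. The regulators Gata3 and Runx1 had 13 each, of 56 and 39. Inpp4b, Tbl1xr1, Trib1 and Trps1 also had 13 each, of 68, 40, 42 and 43. These shares ran from 19.1% at Inpp4b to 33.3% at Runx1, beside 18.9% of all shared distal regions. The genes were picked by their counts, so the shares are a description.

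The densest 100-kb window lay around the transcriptional regulator gene Mdfic, and 4 windows tied behind it with 7 AP-1 regions each, of which those beyond Myc and around Tnfsf11 are given because they held the fewest other regions. The window of Mdfic, chr6:15700001-15800000, held 8 AP-1 regions among 17 shared distal regions, with signals of 2.78 to 8.71 in replicate 1. The window nearest to Myc, chr15:62200001-62300000, held 7 of 12, at 215.8 to 299.8 kb from the start of Myc, with signals of 2.87 to 14.4 in replicate 1 and 2.22 to 14.1 in replicate 2. The window of Tnfsf11, which encodes the cytokine RANKL, chr14:78300001-78400000, held 7 of 16. The windows that tied with these, near Myh9 and Grap, held 7 of 18 and 7 of 19.

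Of the 20807 protein-coding genes, 6469 (31.1%) had an AP-1 region in the gene body or within 20 kb of it, here called the locus. The lists of T-cell genes had more, and their loci also held more shared distal regions of any kind. Loci of neighbouring genes overlap, as do those of Cd3d, Cd3e and Cd3g with 1 AP-1 region each, so 1 region can count for several genes. At least 1 AP-1 region was found at 18 of 23 T-cell core genes, 10 of 15 naive and memory genes, 8 of 11 inhibitory receptor genes, 13 of 22 helper and regulatory lineage factors, 13 of 22 AP-1 and partner factor genes, 11 of 22 cytokine genes and 7 of 20 activation genes. Among genes of other cell types it was 4 of 12 for B cells, 1 of 14 for myeloid cells, 3 of 12 for hepatocytes, 4 of 12 for muscle and 3 of 12 for epithelium, and it was 5 of 13 for housekeeping genes. Over all genes with 6 to 10 shared distal regions in the locus, 73.4% had an AP-1 region. The T-cell core genes, with a median of 9 shared distal regions, had one at 78.3%. The lists with medians of 6 or 7 were lower, at 72.7% (inhibitory receptor), 59.1% (AP-1 and partner factor, lineage factor) and 35% (activation). Naive and memory genes, with a median of 11, had 66.7%, against 93.007% of all genes with 11 to 20. Cytokine genes, with a median of 4, had 50%, against 48.003% of all genes with 3 to 5. These comparisons rest on the median of each list, while the genes of a list spread over several classes. Cd6 of the T-cell core list had 13 shared distal regions, and Tnfsf8 of the cytokine list had 11. The comparisons therefore do not show that any list stood above genes with a similar number of regions.

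As a share of the shared distal regions in the loci, AP-1 regions were not more frequent at T-cell genes. They made up 11.9% of the 243 at T-cell core genes (8.14 to 16.7%) and 11.02% of the 127 at activation genes (6.16 to 17.8%), both with intervals below the 18.9% of all shared distal regions. The share was 17.4% at naive and memory genes, 20.5% at AP-1 and partner factor genes, 16.7% at cytokine genes, 18.2% at inhibitory receptor genes and 16.2% at lineage factors, with intervals that span 18.9%. At myeloid genes it was 1 of 40 regions (0.0633 to 13.2%). The other lists outside T cells also had intervals that span 18.9%: 21.3% at B-cell genes, 17.6% at hepatocyte, 17.1% at muscle, 15.8% at epithelium and 15.4% at housekeeping genes. Regions of 1 locus are not independent, and no test of the lists was made.

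**Figure D5:**
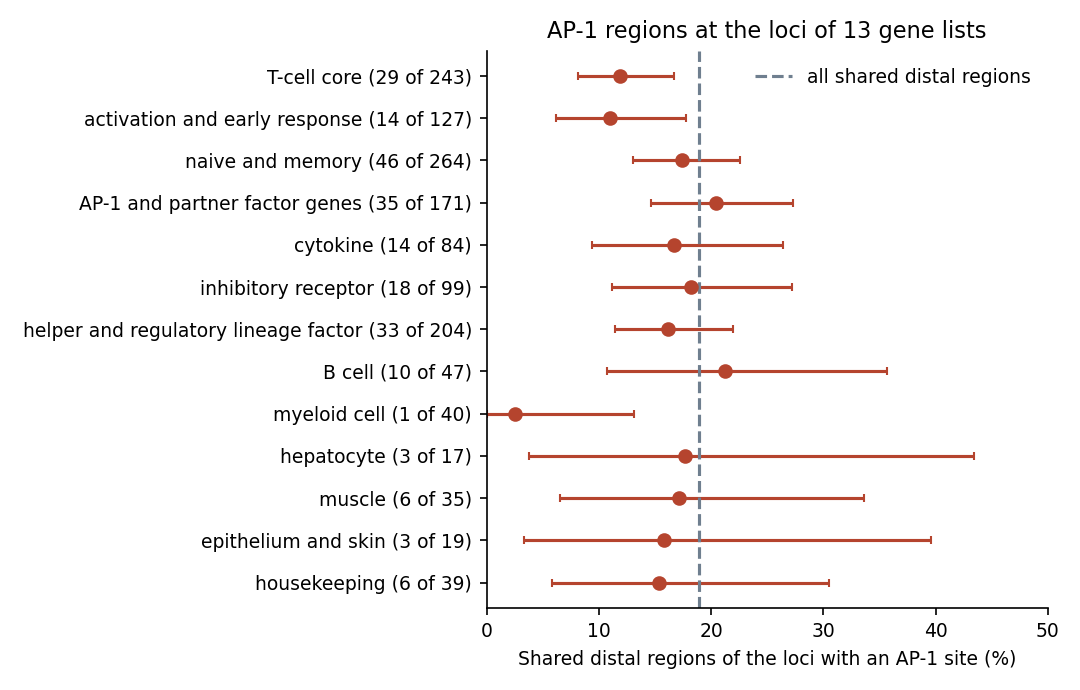
Share of the shared distal regions in the loci of each gene list that held an AP-1 site, with exact 95% intervals, the number of AP-1 regions and of shared distal regions beside each list, and a dashed line at the 18.9% of all shared distal regions. The T-cell core (11.9%), activation (11.02%) and myeloid (2.50%) lists have intervals wholly below the line, and no list lies wholly above it.

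At the genes of AP-1 subunits the counts were small, as were the counts of shared distal regions of any kind. Fos, Fosl1, Fosl2, Jun, Junb and Batf had none in their loci, which held 2 to 6 shared distal regions each. Jund had 2 of 6, Batf3, the partner of JUN and IRF proteins in dendritic cells, 2 of 7, Atf3 2 of 8, and Fosb 1 of 6. Over all genes, 48.003% of those with 3 to 5 shared distal regions in the locus and 73.4% of those with 6 to 10 had an AP-1 region. Of the 35 AP-1 regions at the list's loci, the most were at Bach2, whose protein represses genes at Maf-type AP-1 elements and keeps T cells in a resting state, with 10 of 50, and at Nfatc2, a calcium-regulated partner of AP-1, with 5 of 15. The strongest region of the Bach2 locus, in an intron 11.6 kb from a start, had signals of 9.71 and 9.63 in replicates 1 and 2 (9.67 ± 0.0570, SD, n = 2). Another, 58.9 kb from the Bach2 start and outside that locus, ranked 8 among all AP-1 regions, at 20.3 and 18.4 (19.3 ± 1.32, SD, n = 2).

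Among the listed genes, those of naive, memory and lineage control held the largest numbers, in part in long loci: those of Foxp1, Rora and Bach2 span 637.4, 774.5 and 387.3 kb. As shares of their shared distal regions the AP-1 regions of Foxp1 (16.9%), Rora (17.5%), Bach2 (20%) and Tox (16.7%) were near the 18.9% of all. Foxp1, which keeps T cells quiescent, had 12 of 71 regions, Bcl2, the survival factor, 7 of 25, and Rora, of type 17 and innate-like cells, 7 of 40. Runx1 had 6 of 18, and Tox, of the exhaustion programme, 5 of 30. Il7r, the receptor of the survival cytokine IL-7, had 4 of 8, Ctla4 4 of 12, Cd44 4 of 11 and Prdm1 4 of 11. At Tcf7 the strongest AP-1 region, 16.8 kb from the start, had signals of 14.2 and 14.5 (14.3 ± 0.186, SD, n = 2). At Runx1, in an intron 74.6 kb from the nearest start and with 2 sites, it had 15.1 and 14.3 (14.7 ± 0.614). The strongest AP-1 region of Prdm1, the gene of BLIMP-1, had 14.0 and 13.04 (13.5 ± 0.691), and that of Rora 12.3 and 10.7 (11.5 ± 1.11).

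The loci of receptors and cytokines differed widely in their strongest AP-1 region. Havcr2 had signals of 16.5 and 16.8 in an intron, rank 187 of the 9783, and Il10 had 16.01 and 16.2 at 18.5 kb from its start, rank 280. The AP-1 region of Ifng, 17.9 kb from the start, was intermediate at 11.01 and 10.1, and that of Irf4 was at 9.88 and 10.4. Low signals were found for Il2ra, at 4.23 and 4.63 in an exon, Tnfrsf9, at 3.85 and 4.39, and Icos, at 3.02 and 2.74. By −log10 q, however, the regions of Il2ra (78.2 and 71.0) and Tnfrsf9 (65.1 and 63.9) were above the medians of all AP-1 regions, 39.2 and 28.6. That of Icos was below them, at 12.5 and 6.55. By signal, Havcr2 and Il10 stood above Ifng in both libraries, and Ifng above Il2ra, Tnfrsf9 and Icos.

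No AP-1 region was found in the loci of 10 of the 30 T-cell genes examined one by one: Il2, Il2rb, Il4, Cd69, Batf, Gata3, Ikzf2, Lag3, Ccr7 and Nr4a1. Over all genes, 51.997% of those with 3 to 5 shared distal regions and 26.6% of those with 6 to 10 had none either. The locus of Il2 held 3 shared distal regions, Cd69 5, Batf and Lag3 6 each, Gata3 7, Ikzf2 and Nr4a1 8 each, and Il4 and Ccr7 9 each. Gata3 and Myc show how far the result rests on the limit of 20 kb, because their loci held no AP-1 region while 13 and 23 had these genes as the nearest start. Outside the T-cell lists, the B-cell factor gene Ebf1 had 6 of 20, in a gene of great length, and the muscle gene Mb, for myoglobin, 3 of 4.

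The strongest AP-1 regions were mostly not at T-cell genes. After the Klra4 intron, at 21.5 and 20.3 (20.9 ± 0.858, SD, n = 2), came intergenic regions nearest to Cdk6 at 189.2 kb, with 22.0 and 19.8, to Anxa5 at 126.4 kb, with 21.1 and 19.2, and to Prpf39 at 13.3 kb, with 20.4 and 19.5. The others of the 10 strongest lay in introns of Itih2, Zbtb20, Pard3 and Tango6 and near Phospho2 and Bach2, with mean signals of 19.3 to 19.8. The SD between the libraries was 0.471 to 1.57 for these 10, close to the spread of their means, so their order is not firm. The 3 weakest, in introns of Stk4 and Cd82 and 42.5 kb from Rpl11, had signals of 1.59 to 1.76 in both libraries. Of the 9783 regions, 29 (0.296%) had their summit in an enhancer record of RefSeq, against 138 of the other shared distal regions (0.329%).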

How the data were processed

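The deposited files are narrowPeak lists on mm10, 1 per library, each made from that library's own alignments, per the deposited notes. The aligner, peak caller, versions and threshold are not given in the sources used here. The signal of each peak is a ratio deposited by the authors and was read as fold enrichment from its values. The −log10 p and −log10 q are as the authors deposited them, and their display score equals 10 times the −log10 q, up to its limit, in nearly every peak. No scaling between libraries is stated. Ratios were taken within a library, while the choice of summit, the ranks by mean signal and each mean ± SD set the deposited signals of both libraries side by side unscaled (median log2 of replicate 1 over replicate 2 in the regions with the site, 0.06). Whether reads were shifted for the transposase could not be checked.

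Peaks that overlapped by at least 1 bp were merged across libraries, and the region took the summit of highest signal. Transcription starts were the 52063 starts of protein-coding transcripts of GENCODE mouse release 21 on chromosomes 1 to 19, and sequence came from RefSeq GRCm38.p6. Exon, intron and intergenic were assigned in that order from protein-coding genes only, so an intergenic region can lie in a gene of another kind. Members, gene lists, letters searched and the rule for named genes and regions (the 10 strongest and 3 weakest, 1 per gene of a list of 30, the 10 genes nearest to most regions, the 3 densest windows and 2 genes per list) were chosen with earlier results of these data known. With 2 libraries in 1 group no test was possible, and intervals are exact Clopper-Pearson at 95%. Python 3.11.15, pandas 2.3.3, scipy 1.17.1 and pysam 0.24.0 were used, and the code was tested on simulated data. The alternatives tried are given in the closing section.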

Additional observations from a re-analysis of the deposited data

Results flagged for a closer look

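Chromosome X was outside the choice of regions and was looked at separately, and it carried the same kind of signal. It held 1091 shared distal regions. Of these, 210 had an AP-1 site within 50 bp of the summit, or 19.2% (16.9 to 21.7%). Their median signal was 7.28 with the site and 6.12 without it in replicate 1, and 6.86 and 5.94 in replicate 2, ratios of 1.19 and 1.16. There were 1.23 such regions per Mb, against 3.97 per Mb on chromosomes 1 to 19. No group had enough samples for an outlying sample to be looked for.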

How the results depend on the processing

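The share of shared distal regions with the site was 18.9% as reported, and 19.6% among peaks with a −log10 q of at least 5, 21.2% among the 50000 strongest peaks per library, 19.1% where at least 50% of both peaks overlapped, 9.57% in a window of 25 bp (4951 regions), 24.99% in one of 100 bp, 19.6% with only the centre of the site within 50 bp, 18.7% and 19.4% with distal set at 500 and 5000 bp, 19.4% with starts of all annotated genes, and 18.95% with the summit of highest −log10 p. With A or T at the centre, an alternative added after the values were seen, it was 3.83% (1979 regions, signal ratio 1.10). The signal ratio of 1.16 (mean of both libraries) stayed above 1 under all 14 settings. It was 1.13 at the q threshold, 1.08 among the 50000 strongest peaks, 1.15 at the stricter overlap, 1.13 and 1.19 in windows of 25 and 100 bp, 1.16 beyond 5000 bp and, also added later, 1.18 without CTCF matches.

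In the same order of settings, the intergenic share of 44.3% was 44.6% (q threshold), 45.7% (50000 strongest), 44.6% (overlap), 43.9% (25 bp), 44.1% (centre within 50 bp), 44.1% (500 bp), 46.6% (5000 bp), 44.8% (all starts) and 44.1% (−log10 p). The median distance of 24.996 kb was 26.5 kb (50000 strongest), 25.1 kb (overlap), 25.1 kb (25 bp), 24.4 kb (500 bp), 29.7 kb (5000 bp) and 25.2 kb (all starts). The share in both libraries of 79.5% was 81.0% (q threshold), 82.6% (50000 strongest) and 75.2% (overlap). From 1 library alone, without the other, the share with the site was 18.1 to 18.2%, the signal ratio 1.19 in both cases, the intergenic share 44.0 to 44.1%, the median distance 24.6 to 24.8 kb and the number of regions 10675 to 11275. These ranges come from more regions, as no match in the other library was needed. The cause of the other shifts was not tested.

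No paired analysis was possible because there is 1 group. The depth of the libraries is unknown, and absence from a list was not separated from a peak under the threshold. An exact match misses variants of a site, and a match does not show that a factor was bound. Whether the 2 libraries are independent is not known, and all shares are of regions in these libraries.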
